A study of Mus musculus with 12 samples.

Results

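RNA of 9 genes that define GABAergic interneurons was compared in the forebrain of WT and Shank2-KO mice treated early with vehicle or memantine. The genes were named as a list by function, and all 9 were found by symbol among the 19312 genes of the deposited table: the GABA synthesis genes Gad1 and Gad2, the vesicular transporter gene Slc32a1, the transcription factor gene Lhx6, and the subtype genes Pvalb, Sst, Vip, Npy and Calb2. This list and the related lists below were chosen with earlier results of these data known. Their counts beside the share of all genes are therefore descriptions. The 12 mice were male C57BL/6N animals of 4 groups with 3 mice each. WT-Veh and KO-Veh mice received 0.1% saccharin, whereas WT-Mem and KO-Mem mice received memantine (20 mg/kg), an NMDA receptor (NMDAR) antagonist, each by mouth 2 times a day from P7 to P21, and all brains were collected at P25. KO mice carried a homozygous deletion within Shank2, which encodes an excitatory postsynaptic scaffold. The brains were not pooled, and the methods describe forebrain without cerebellum and brain stem while the labels give whole brain. The values are normalized read counts.

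Inhibitory interneurons make GABA from glutamate with 2 glutamate decarboxylases, load it into vesicles and release it onto principal cells. In the cortex and hippocampus, those born in the medial ganglionic eminence need Lhx6 and mostly become parvalbumin or somatostatin cells, whereas many cells with vasoactive intestinal peptide or calretinin come from the caudal ganglionic eminence. The genes are not private to these cells, since striatal projection neurons and other inhibitory neurons of the forebrain also make GABA, and in bulk tissue fewer cells of a type and less RNA per cell cannot be told apart.

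Of the 9 genes, 4 lie on chromosome 2 of GRCm38: Gad2 (22622205 to 22693874), Lhx6 (36081953 to 36105408, minus strand), Gad1 (70553072 to 70602014) and Slc32a1 (158610767 to 158615748). The remaining genes are Vip on chromosome 10 (5639218 to 5647617), Npy on chromosome 6 (49822710 to 49829507), Calb2 on chromosome 8 (110137502 to 110168210, minus strand), Pvalb on chromosome 15 (78191114 to 78206400, minus strand) and Sst on chromosome 16 (23889573 to 23890958, minus strand). Over 697 bases Slc32a1 overlaps the antisense gene Gm14205, and since the library kit does not mark strand, reads from this stretch cannot be told apart. The promoters of the peptide genes Vip and Sst and of Pvalb are shown because Vip and Pvalb carry the largest genotype differences over both treatments among the 9 genes and Sst is the textbook case of a cyclic AMP responsive promoter. Each line gives the 250 bases before the RefSeq start site (GRCm38.p6, 5′ to 3′ on the gene's strand), with TGACGTCA, its first 7 letters TGACGTC, and TATAAA in capitals. The windows are chr10:5638968-5639217 for Vip, chr16:23890845-23891094 on the minus strand for Sst and chr15:78206401-78206650 on the minus strand for Pvalb.
Vip: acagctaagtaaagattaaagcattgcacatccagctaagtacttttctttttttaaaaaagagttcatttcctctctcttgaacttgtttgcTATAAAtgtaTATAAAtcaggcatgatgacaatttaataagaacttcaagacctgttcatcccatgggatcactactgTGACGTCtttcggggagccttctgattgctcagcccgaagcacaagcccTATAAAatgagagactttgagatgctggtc
Sst: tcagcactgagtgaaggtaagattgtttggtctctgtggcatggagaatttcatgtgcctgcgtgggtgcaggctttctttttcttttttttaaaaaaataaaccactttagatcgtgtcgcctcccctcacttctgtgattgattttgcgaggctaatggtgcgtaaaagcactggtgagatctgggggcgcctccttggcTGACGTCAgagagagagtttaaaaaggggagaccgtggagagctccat
Pvalb: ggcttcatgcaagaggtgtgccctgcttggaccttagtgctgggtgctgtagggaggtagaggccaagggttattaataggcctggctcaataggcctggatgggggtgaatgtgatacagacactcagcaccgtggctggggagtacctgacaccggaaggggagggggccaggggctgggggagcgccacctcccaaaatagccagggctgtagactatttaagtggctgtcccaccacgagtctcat

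The full palindrome TGACGTCA, the consensus cyclic AMP response element (CRE), stood in the Sst window at positions -48 to -41 before the start, and its first 7 letters stood in the Vip window at -79 to -73. Searched on both strands in windows from 250 bases before to 50 after the start, the palindrome was present in 1.79% of 32851 RefSeq promoters and the 7 letters, which include the palindrome, in 3.21%. TATAAA was present in 13.6% of all promoters and stood in the Vip window at -157 to -152, -147 to -142 and -30 to -25. Neither TGACGTC nor forward TATAAA was found in the Pvalb window. In the windows of 8 of the 9 genes (11 windows), the half-site TGACG, which is part of the longer motifs and was present in 20.8% of promoters, occurred in Vip, in Sst and, on the minus strand, in Gad2 at -33 to -29. The homeodomain core TAATTA, present in 5.29% of promoters, was found in none of these 11 windows.

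Shank2 itself was measured at 7156 to 8548 normalized counts in the 6 WT mice and at 2706 to 3178 in the 6 KO mice (log2 fold change -1.45, SE 0.06), so each mouse was on the side its label gives. The 9 genes were at 464 normalized counts or more in every mouse, and the lowest mean of any gene over mice was 4.514. KO-Veh replicate 3 stood apart in 5 cerebellar marker genes (Pcp2, Car8, Gabra6, Cbln3 and En2). Their summed level was 2365 there and 304.6 to 505.4 in the other 11 mice, and Gabra6 was listed at 0 in 6 mice and at 253.9 in this one. Because cerebellar neurons contain Pvalb and Calb2 transcripts, the called genotype differences over both treatments and that of Calb2 are also given without it. This mouse also had the highest Gad1 of all mice (10467). Within the KO-Veh group it had the highest Gad2 (8406) and the lowest Slc32a1 (4685). Each mouse was also left out in turn, this one included. The genotype difference over both treatments was then 0.003 to 0.03 for Gad1 and -0.06 to 0.03 for Slc32a1, without a call. The part of cerebellar tissue in these values was not tested. WT-Veh replicate 3 had the highest oligodendrocyte level of all mice (Mbp, Mog and Mobp summed to 238325), and the called genotype differences over both treatments are given without it too.

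Of the GABA synthesis genes, Gad2 was called between genotypes over both treatments and Gad1 was not. The genes were not tested against each other. Gad1, which encodes the form of glutamate decarboxylase found throughout the cell, was measured at 9572, 9968 and 9230 normalized counts in WT-Veh mice and at 10022, 9532 and 10467 in KO-Veh mice. With memantine, Gad1 was 10131, 10214 and 9894 in WT mice and 9886, 10212 and 9795 in KO mice. The 4 groups overlapped, and the genotype difference over both treatments had a log2 fold change of 0.02 with a 95% confidence interval from -0.06 to 0.10. Gad2, which encodes the form enriched at nerve terminals, was 7397, 7339 and 6478 in WT-Veh and 8224, 7859 and 8406 in KO-Veh mice. In memantine-treated mice, Gad2 was 7927, 7791 and 7022 in WT and 8854, 8949 and 7805 in KO animals. Gad2 did not overlap between the vehicle groups, while KO-Mem replicate 3 fell within the WT-Mem range. Over both treatments Gad2 rose in KO mice by 0.19 on the log2 scale (SE 0.05, fold 1.14, adjusted p = 0.0283), a difference past the threshold, although neither Veh-K/W (0.21, SE 0.07, adjusted p = 0.238) nor Mem-K/W (0.17, SE 0.07, adjusted p = 0.223) was past it alone. Without KO-Veh replicate 3 the pooled difference was 0.18 (adjusted p = 0.0707) and without WT-Veh replicate 3 it was 0.16 (adjusted p = 0.0429). Within each mouse the ratio of Gad2 to Gad1 counts was 0.702 to 0.782 in the 6 WT mice and 0.797 to 0.896 in the 6 KO mice, given as a description without a test.

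Slc32a1, which encodes the transporter that fills vesicles with GABA, was not called between genotypes and was not tested against Gad2. In vehicle-treated animals it was 5054, 5465 and 4111 in WT and 5310, 5131 and 4685 in KO mice, and after memantine 5198, 5191 and 5509 in WT and 4757, 5186 and 5300 in KO mice. The low mouse was WT-Veh replicate 3, and all groups overlapped. The genotype difference over both treatments was -0.003 (log2) with a 95% confidence interval from -0.14 to 0.13. In Veh-K/W the difference was 0.06 (SE 0.10) with all mice and -0.06 without WT-Veh replicate 3, so the sign turned without that mouse, in a difference that was not called.

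Lhx6, the homeodomain factor of interneurons from the medial ganglionic eminence, was higher in KO mice in the pooled comparison. In vehicle-treated mice it was 564, 640 and 464 in WT and 738, 689 and 742 in KO animals, so the groups did not overlap (log2 fold change 0.39, SE 0.12, adjusted p = 0.211). In memantine-treated mice it was 625, 523 and 558 in WT and 575, 679 and 663 in KO animals, which overlapped (0.17, SE 0.11, adjusted p = 0.387). Over both treatments Lhx6 rose by 0.28 in KO mice (SE 0.08, fold 1.21, adjusted p = 0.0450). This was the weakest of the called differences among the 9 genes: without KO-Veh replicate 3 the adjusted p was 0.103, and without WT-Veh replicate 3 it was 0.0668.

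Pvalb, which encodes the calcium buffer of fast-spiking interneurons, was the 1 gene of the 9 with a called decrease. Its normalized counts were 654, 721 and 924 in WT-Veh and 516, 620 and 711 in KO-Veh mice, which overlapped. In memantine-treated mice they were 597, 606 and 766 in WT and 464, 497 and 529 in KO animals, where every KO value lay below every WT value. The differences were -0.31 in Veh-K/W (SE 0.14, adjusted p = 0.363) and -0.39 in Mem-K/W (SE 0.12, adjusted p = 0.122). Over both treatments Pvalb fell by 0.35 on the log2 scale in KO mice (SE 0.10, fold 0.783, adjusted p = 0.0347). Without KO-Veh replicate 3, which had the highest Pvalb of the KO mice, the decrease was -0.41 (adjusted p = 0.0388). Without WT-Veh replicate 3, the highest of all mice, it was -0.29 and no longer past the threshold (adjusted p = 0.0624).

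Vip, which encodes vasoactive intestinal peptide of a disinhibitory interneuron class, was the gene whose genotypes did not overlap over both treatments. In the 6 WT mice Vip stayed within a narrow range, at 518, 503 and 529 in WT-Veh and 522, 530 and 520 in WT-Mem animals. The KO values lay higher and further apart, with 656, 560 and 703 after vehicle and 766, 704 and 545 after memantine. The SD was 12.8 and 5.47 in WT-Veh and WT-Mem mice and 72.9 and 114 in KO-Veh and KO-Mem mice. Vip rose in KO mice by 0.32 (SE 0.08, fold 1.25, adjusted p = 0.0233), with all 6 KO mice above all 6 WT mice. The size was similar in Veh-K/W (0.30, SE 0.10, adjusted p = 0.241) and Mem-K/W (0.34, SE 0.12, adjusted p = 0.168). KO-Mem replicate 3 had the lowest Vip of the KO mice, and without it the Mem-K/W difference was 0.49 with an adjusted p of 0.0161, in a fit that called 1911 genes where all 6 mice called 12. Without KO-Veh replicate 3 the difference over both treatments was 0.29 and not past the threshold (adjusted p = 0.0628), and without WT-Veh replicate 3 it was 0.33 and past it (adjusted p = 0.0316).

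The other subtype genes were not called between genotypes. Sst, which encodes the inhibitory peptide somatostatin of dendrite-targeting interneurons, was 4015, 4483 and 3808 in WT and 3723, 3654 and 3910 in KO mice given vehicle. After memantine Sst was 3961, 3958 and 4434 in WT and 3988, 3953 and 3843 in KO mice. Its genotype difference was -0.09 (SE 0.05, adjusted p = 0.201). Npy, which encodes neuropeptide Y, was 1428, 1618 and 1560 in WT and 1519, 1431 and 1769 in KO mice given vehicle. After memantine Npy was 1568, 1606 and 1606 in WT and 1733, 1801 and 1554 in KO mice (genotype difference 0.06, SE 0.06, adjusted p = 0.525). Calb2, which encodes the calcium-binding protein calretinin, was 1529, 1578 and 1794 in WT and 1589, 1733 and 1928 in KO mice given vehicle. After memantine Calb2 was 1587, 1657 and 1850 in WT and 1439, 1468 and 1848 in KO mice. Its genotype difference was -0.004 (SE 0.08, adjusted p = 0.982), and the highest value belonged to KO-Veh replicate 3, without which the difference was -0.05 (adjusted p = 0.737). For Npy and Calb2 each pair of groups overlapped.

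**Figure D1:**
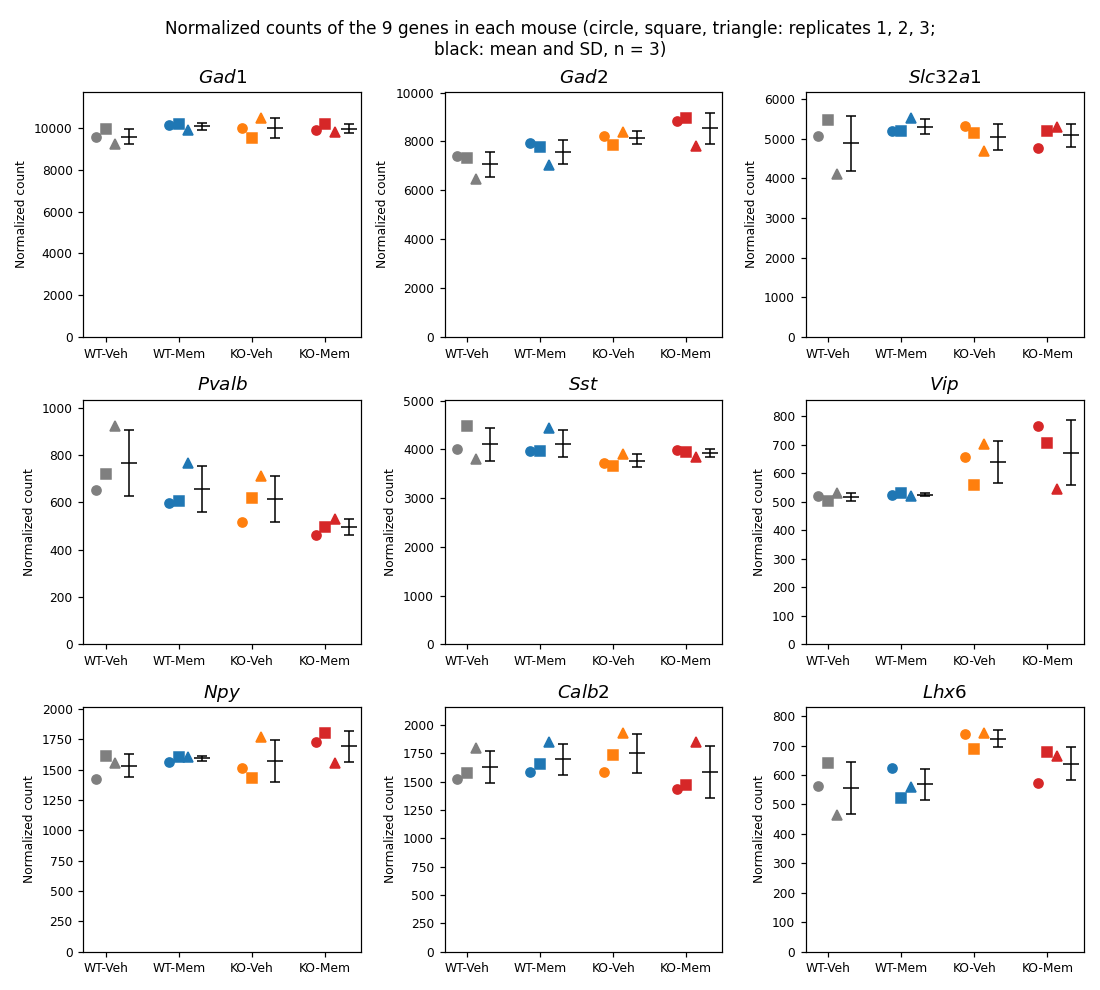
Normalized count (vertical axes, from 0) of each of the 9 genes by group; coloured symbols are single mice, black bars the mean and SD of 3 mice. Vip is tight in the WT mice (503 to 530) and spread above them in KO mice (545 to 766), Pvalb is lowest in KO-Mem mice (464 to 529), and Gad1 overlaps in all groups.

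Veh-K/W asked how vehicle-treated KO mice differ from vehicle-treated WT mice. None of the 9 genes was past the threshold of an adjusted p of 0.05 in limma, where 0.0283% of 17671 genes tested were. At an unadjusted p under 0.05, 3 of the 9 passed (Lhx6, Gad2 and Vip, all higher), beside 14.4% of all genes. The values of the groups did not overlap for 3 of the 9, beside 20.4% of all genes. The median log2 fold change of the 9 genes was 0.06, beside 0.002 over all genes.

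Mem-K/W made the same comparison after memantine. Again none of the 9 genes was called, beside 0.068% of 17646 genes, and 3 had an unadjusted p under 0.05 (Pvalb lower, Vip and Gad2 higher), beside 21.0% of all genes. Pvalb and Vip, 2 of the 9, did not overlap between the groups, beside 26.2% of all genes. Memantine did not change the genotype difference of any of the 9 past the threshold: in the interaction (Mem-K/W minus Veh-K/W) the smallest adjusted p was 0.947, no gene of the 9 had an unadjusted p under 0.05, and all genes gave 0.0% and 4.76%. The intervals were wide, from -0.52 to 0.35 for Pvalb, from -0.31 to 0.40 for Vip and from -0.57 to 0.13 for Lhx6, and each held a value as large as the gene's own genotype difference over both treatments.

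The genotype difference over both treatments, with 6 KO and 6 WT mice and treatment in the fit, called 4 of the 9 genes: Gad2, Vip and Lhx6 higher and Pvalb lower. In the same fit 10.8% of 17655 genes were called and 29.5% had an unadjusted p under 0.05, with the same 4 of the 9 under it. Vip was the 1 gene of the 9 with no overlap between the 6 KO and 6 WT mice, beside 4.06% of all genes. The median log2 fold change of the 9 genes was 0.02 and of all genes 0.004, and 5 were above 0 and 4 below. The median size regardless of sign was 0.09 in the 9 genes and 0.12 over all genes. With no trend of the variance in the fit, 0 of the 9 and 894 genes in all were called. The calls also depended on single mice: leaving out each of the 12 mice in turn gave 0 to 3 calls, and no fit kept all 4. Vip was called in 9 of the 12 such fits, Gad2 in 7, Pvalb in 4 and Lhx6 in 3, always with the same sign. Vip was lost without KO-Mem replicate 1 or 2 or KO-Veh replicate 3 (adjusted p 0.0542 to 0.0628). Gad2 was lost without WT-Mem replicate 3, KO-Mem replicate 1 or 2, or KO-Veh replicate 1 or 3 (0.0526 to 0.0707). Pvalb was kept only without WT-Veh replicate 1, KO-Veh replicate 2 or 3, or KO-Mem replicate 3 (0.0504 to 0.0799 in the other fits), and Lhx6 only without WT-Mem replicate 1, WT-Veh replicate 2 or KO-Mem replicate 1 (0.0521 to 0.103 in the others). Without KO-Veh replicate 3 alone, Pvalb was the 1 gene of the 9 still called, and the genes called in all fell from 1907 to 694. The same held without both KO-Veh replicate 3 and WT-Veh replicate 3 (Pvalb -0.35, adjusted p = 0.0481), where 636 genes were called in all.

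**Figure D2:**
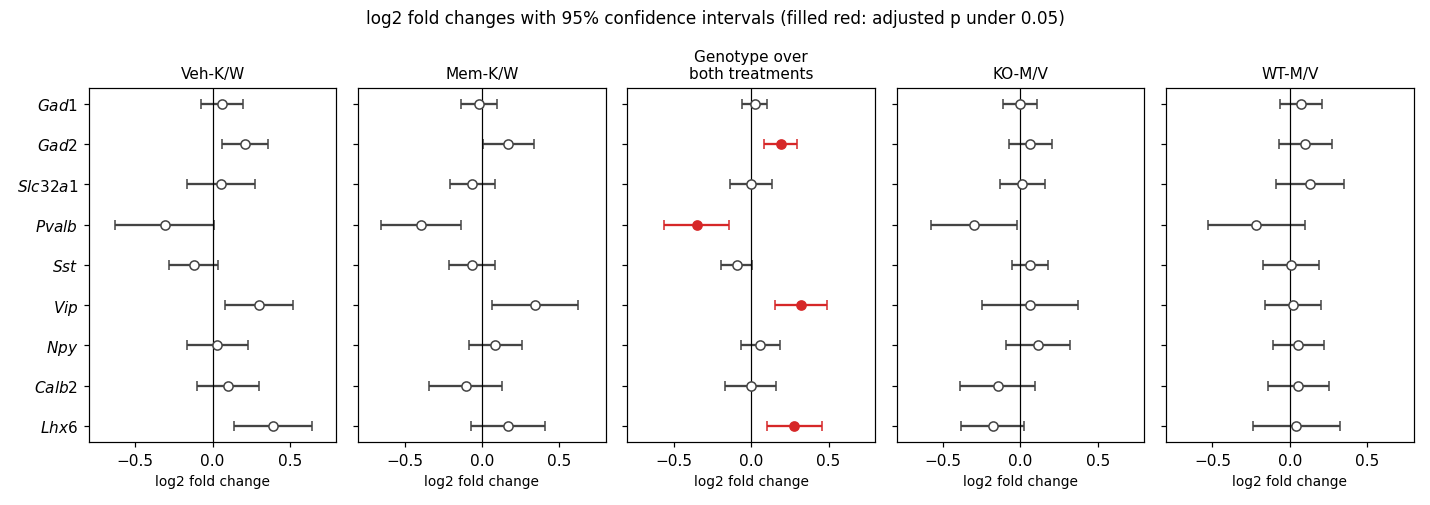
The log2 fold change (horizontal axes) of each of the 9 genes with its 95% confidence interval in 5 comparisons; filled red marks an adjusted p under 0.05. Filled points are found in the genotype difference over both treatments alone (Gad2 0.19, Pvalb -0.35, Vip 0.32, Lhx6 0.28), and the memantine comparisons KO-M/V and WT-M/V hold none.

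KO-M/V asked what memantine did in KO mice. None of the 9 genes was called, as was the case for all genes (0.0% of 17707). Pvalb was the 1 gene with an unadjusted p under 0.05, at -0.30 (SE 0.12, adjusted p = 0.555), beside 8.88% of all genes. Lhx6 was the 1 gene whose values did not overlap, with all 3 KO-Mem mice (575 to 679) below all 3 KO-Veh mice (689 to 742), beside 13.9% of all genes, and its difference of -0.18 (SE 0.09, adjusted p = 0.569) did not pass. In WT-M/V none of the 9 was called, beside 0.0114% of 17564 genes, none had an unadjusted p under 0.05, beside 3.97%, and none was without overlap, beside 9.34%. The Pvalb difference there was -0.22 (SE 0.14), and over both genotypes memantine gave -0.26 for Pvalb (SE 0.10, unadjusted p = 0.0187, adjusted p = 0.512 in limma). That was the 1 gene of the 9 with an unadjusted p under 0.05 in the memantine comparison over both genotypes, beside 8.6% of all genes, and neither the 9 nor all genes had a call (0.0%). Both genotype comparisons share mice with both memantine comparisons, so their values are not independent of each other.

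The crossed comparisons set memantine-treated mice of one genotype against vehicle-treated mice of the other. In KO-M/WT-V, 1 of the 9 genes was called, beside 3.37% of 17662 genes: Pvalb fell by 0.61 (SE 0.13, fold 0.655, adjusted p = 0.0403), with KO-Mem mice at 464 to 529 and WT-Veh mice at 654 to 924. At an unadjusted p under 0.05, 3 of the 9 passed (Pvalb, Gad2 and Vip), beside 25.9% of all genes. The Pvalb call held in 1 of the 6 fits that left out a mouse. It was lost without WT-Veh replicate 1 (adjusted p = 0.0565), 2 (0.123) or 3 (0.0956) and without KO-Mem replicate 1 (0.131) or 2 (0.15), at log2 fold changes of -0.72 to -0.47. In WT-M/KO-V none of the 9 was called, beside 0.0227% of 17648 genes, and 2 had an unadjusted p under 0.05 (Lhx6 at -0.35 and Vip at -0.28, both lower in WT-Mem), beside 8.94%.

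Compared per kilobase of the longest coding transcript, the 9 genes spanned a wide range of levels. Sst had the highest mean over the 12 mice (5516 normalized counts per kb), followed by Gad1 (2954), Npy (2826), Slc32a1 (1814), Gad2 (1364), Calb2 (1165), Pvalb (648.7), Vip (384.3) and Lhx6 (178.6). The ranges over mice overlapped between the neighbours Gad1 and Npy, Slc32a1 and Gad2, Gad2 and Calb2, and Pvalb and Vip, and did not between the others. The order depends on the transcript model, since Gad1 fell from rank 2 to rank 5 per kb of merged exons, whereas Sst stayed first and Pvalb, Vip and Lhx6 stayed last. The order within each group was that of all mice apart from KO-Mem mice, where Npy (2997 per kb) stood before Gad1 (2970).

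**Figure D3:**
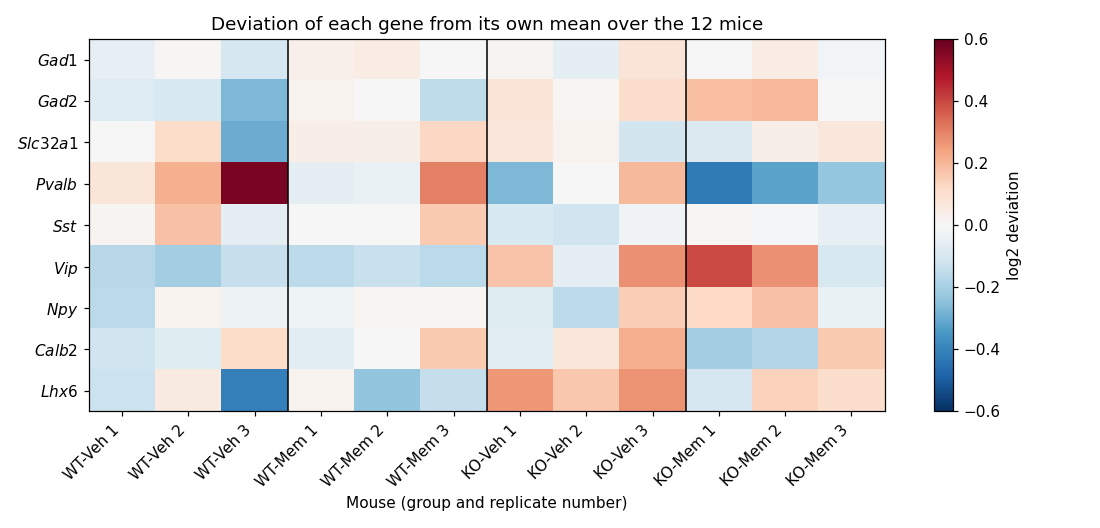
Heatmap of each gene's log2 deviation (colour, red above and blue below) from its own mean over the 12 mice; rows are the 9 genes and columns the mice, with black lines between groups. The widest deviations belong to Pvalb, Vip and Lhx6, and WT-Veh replicate 3 combines high Pvalb (924) with low Gad2 (6478), Slc32a1 (4111) and Lhx6 (464).

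Pairs of the 9 genes were compared across the 12 mice on the log2 scale, 36 pairs in all, with permutation tests of 100000 resamples. Values were permuted over all 12 mice regardless of group, so genotype differences of both genes enter these p-values. The r after removal of the group means was not tested. By Pearson's r, 2 pairs passed after adjustment over the 36. Gad2 and Pvalb varied in opposite directions (r = -0.85, permutation p = 0.00047, adjusted p = 0.0128; rho = -0.81, permutation p = 0.00212, adjusted p = 0.0382). Without the 2 mice farthest from the median of Gad2, r was -0.71, without KO-Veh replicate 3 it was -0.96, and after removal of the group means it was -0.67. Within genotypes, r was -0.99 in the 6 WT mice and -0.41 in the 6 KO mice. Gad2 and Vip varied together (r = 0.81, permutation p = 0.00071, adjusted p = 0.0128; rho = 0.84, permutation p = 0.00097, adjusted p = 0.0349). For this pair r was 0.88 without the 2 farthest mice, 0.80 without KO-Veh replicate 3, 0.93 in the 6 KO mice and -0.10 in the 6 WT mice, where Vip hardly varied, and 0.57 after removal of the group means. Gad1 and Gad2, the 2 synthesis genes, had r = 0.65 (permutation p = 0.0209, adjusted p = 0.142). These 2 passing pairs were not the closest after removal of the group means. There r was 0.84 for Pvalb and Calb2, -0.775 for Gad2 and Calb2, and 0.745 for Slc32a1 and Lhx6. It was 0.72 for Vip and Npy, 0.71 for Gad1 and Gad2, and 0.71 for Gad1 and Npy. None of these pairs passed with the group means left in.

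The genes whose values most resembled each of the 9 over the 12 mice, among genes with a mean of at least 50, were chosen by the highest Pearson r and are listed without a test. For Vip they were C4b (r = 0.98), Uvssa (0.97) and Aldh6a1 (0.97), and for Gad2 Fndc3a, Akap11 and Tmx4 (each 0.97). For Pvalb they were Nudt3 and Hcfc1r1 (each 0.94) and Dmp1 (0.94), and for Lhx6 Eps8 (0.92), Gm28285 and Gm17753 (each 0.89). Slc32a1 was closest to Rtn4rl2 (0.97), Gnb5 (0.96) and Skp1a (0.94), Gad1 to Nsun2 (0.89), Rspo2 (0.89) and Il4ra (0.86), and Sst to Fam129b (0.89), Rpl36 (0.87) and Matn4 (0.86). Npy was closest to Lbr (0.91), Mlycd (0.88) and B2m (0.88), and Calb2 to Tmem254b (0.85), Nxph4 (0.84) and Fank1 (0.83). None of the 9 genes was among the 3 most like any other of them.

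Other genes were read from lists of related function, and the cells that express them cannot be told from bulk tissue. GABA uptake and breakdown held no called gene among 5 in the genotype difference over both treatments (median log2 fold change -0.03), beside 10.8% of all genes. Aldh5a1, which encodes the enzyme that oxidizes succinic semialdehyde, had the smallest p of that list (-0.13, SE 0.04, adjusted p = 0.0757). Of 15 interneuron transcription factors none was called, beside the same 10.8%, at a median of 0.05. The smallest p belonged to Dlx2, a factor of the ganglionic eminences (0.27, SE 0.09, adjusted p = 0.0567), followed by Satb1 (-0.15, adjusted p = 0.0817). In Veh-K/W 1 of the 15, Sp9 (0.33), had an unadjusted p under 0.05 and no call, beside 14.4% of all genes, as did 2, Satb1 (-0.25) and Dlx2 (0.34), in Mem-K/W, beside 21.0%.

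Of 28 other interneuron subtype genes, 1 was called higher and 4 lower in KO mice over both treatments, beside 10.8% of all genes in either direction. Htr3a, the ionotropic serotonin receptor gene of caudal eminence interneurons, rose by 0.53 (SE 0.11, adjusted p = 0.0113), from 181.8 to 215.6 normalized counts in WT mice to 224.8 to 356.6 in KO mice without overlap. Kcnc1, which encodes the fast potassium channel subunit of fast-spiking cells, fell by 0.23 (SE 0.05, adjusted p = 0.0109), and Cox6a2, a respiratory chain subunit gene, fell by 0.38 (SE 0.09, adjusted p = 0.0232). Lamp5, listed here as a gene of neurogliaform cells, fell by 0.30 (SE 0.06, adjusted p = 0.00855), and Cck, which encodes cholecystokinin and is also made in pyramidal neurons, fell by 0.32 (SE 0.06, adjusted p = 0.0110). The cells in which these 5 genes differed cannot be told from bulk tissue. All 5 stayed called without KO-Veh replicate 3, beside 694 of 17634 genes in that fit. Without both KO-Veh replicate 3 and WT-Veh replicate 3 Cox6a2 was lost (adjusted p = 0.0564), in a fit that called 636 of 17623 genes. In Veh-K/W none was called and 2 were higher and 5 lower at an unadjusted p under 0.05, 7 of 28 beside 14.4% of all genes, with the smallest p for Cck (-0.32), Lamp5 (-0.34), Htr3a (0.51) and Kcnc1 (-0.17). In Mem-K/W none was called, and Kcnc1 (-0.30), Lamp5 (-0.27), Htr3a (0.56) and Cck (-0.32) had the smallest p among 2 higher and 8 lower, 10 of 28 beside 21.0% of all genes.

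The perineuronal net, the matrix sheath that surrounds mainly parvalbumin cells, was the list with the lowest median among these related lists (-0.26 over both treatments, 7 genes), with 1 gene called higher and 2 lower, beside 10.8% of all genes in either direction. Hapln4, a link protein gene, fell by 0.39 (SE 0.06, adjusted p = 0.00494), from 2178 to 2666 in WT mice to 1465 to 2164 in KO mice without overlap. Ncan, which encodes neurocan, fell by 0.27 (SE 0.06, adjusted p = 0.0166), and Vcan, which encodes versican, rose by 0.19 (SE 0.05, adjusted p = 0.0321). Acan, which encodes aggrecan, was at -0.27 (adjusted p = 0.0871) and Hapln1, which is also in the subtype list, at -0.26 (adjusted p = 0.122). Without KO-Veh replicate 3 Vcan was lost (adjusted p = 0.0803), while Hapln4 and Ncan stayed called, beside 694 of 17634 genes in that fit. In Veh-K/W Hapln4 (-0.40), Acan (-0.36) and Vcan (0.17), and in Mem-K/W Ncan (-0.40), Hapln4 (-0.38) and Vcan (0.21), had an unadjusted p under 0.05 and no call, 3 of 7 in each beside 14.4% and 21.0% of all genes. In KO-M/WT-V, 2 of the 7 net genes were called, Hapln4 (-0.60, adjusted p = 0.0243) and Ncan (-0.32, adjusted p = 0.0432). Of the 28 subtype genes, 1 was called there, Kcnc1 (-0.38, adjusted p = 0.0329), and 3.37% of 17662 genes were called in all. These calls were not particular to such genes. The same comparison called all 4 blood, 2 of 3 oligodendrocyte, 1 of 5 astrocyte and 1 of 7 glutamatergic marker genes lower. The list of 11 peptide receptor genes covers Npy, Sst, Vip and the Vip relative PACAP. The 1 called, beside 10.8% of all genes, was the PACAP receptor gene Adcyap1r1, and no receptor gene of Npy, Sst or Vip itself was called. Adcyap1r1 rose by 0.27 (SE 0.05, adjusted p = 0.00830), from 6328 to 6965 in WT mice to 7194 to 8613 in KO mice. Npy1r, a receptor gene of neuropeptide Y, was at 0.16 (SE 0.07, adjusted p = 0.149) over both treatments and at 0.22 (adjusted p = 0.346) in Veh-K/W, with an unadjusted p under 0.05 in both and no call.

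**Figure D4:**
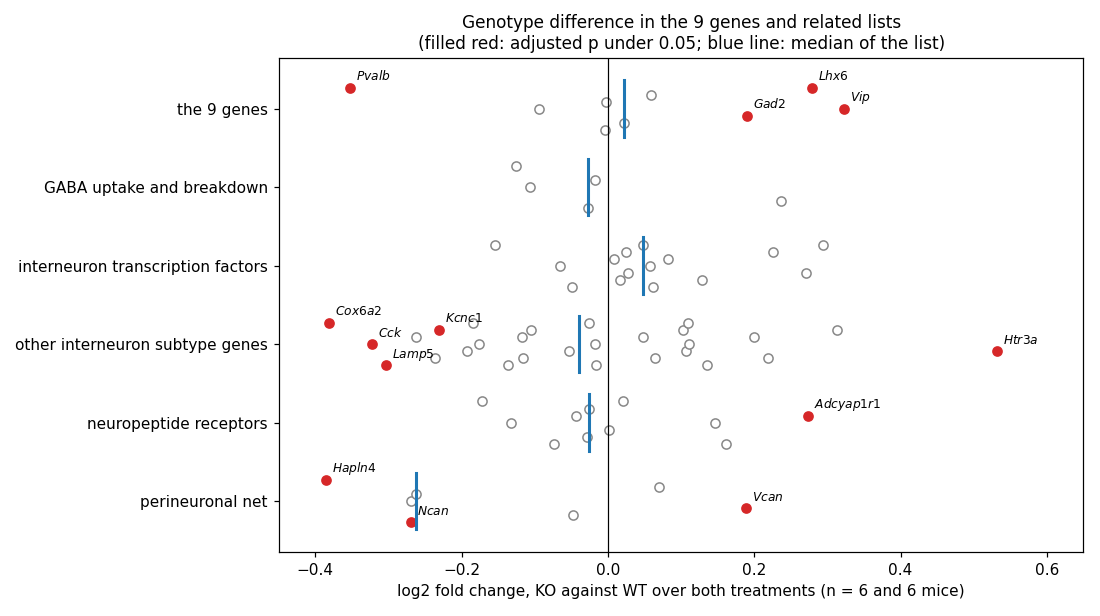
The log2 fold change of KO against WT over both treatments (horizontal axis) for every gene tested in the 9 genes and 5 related lists; filled red points have an adjusted p under 0.05 and blue lines are list medians. Called genes lie on both sides of 0 in the subtype list and the perineuronal net, and the list median furthest below 0 is that of the net (-0.26).

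Marker genes of other cells moved with genotype beside these differences. All 4 blood genes (Hbb-bs, Hbb-bt, Hba-a1 and Hba-a2) were called lower in KO mice over both treatments, as were 2 of 3 oligodendrocyte genes (median -0.28), all 3 endothelial genes (-0.23), 2 of 5 astrocyte genes (-0.16), 1 of 4 microglia genes (P2ry12) and 1 of 7 glutamatergic genes (Nrgn, -0.39), beside 10.8% of all genes in either direction. Without KO-Veh replicate 3, 2 of the blood, 2 of the oligodendrocyte, 1 of the astrocyte and 1 of the glutamatergic genes were called and none of the endothelial or microglia genes. That fit called 694 of 17634 genes in all. The summed oligodendrocyte level was 184702 to 238325 in WT and 160874 to 169875 in KO mice given vehicle, and 162530 to 198088 in WT and 142134 to 161154 in KO mice given memantine. The summed blood level was 19264 to 26106 in WT and 7473 to 18552 in KO mice given vehicle, and 13147 to 14617 in WT and 5592 to 12370 in KO mice given memantine. None of the 7 striatal projection neuron genes was called, nor any thalamic (4), hypothalamic (5), olfactory bulb (5), choroid plexus (4) or cerebellar (5) gene. Their medians were -0.04 (striatal), 0.04 (thalamic), 0.07 (hypothalamic), 0.26 (olfactory bulb), -0.24 (choroid plexus) and 0.72 (cerebellar, KO-Veh replicate 3 included). The summed olfactory bulb level was 853.7 in WT-Mem replicate 3 and 994.1 to 1648 in the other mice. That mouse also had the lowest Gad2 of the WT-Mem group (7022). Of the hindbrain list 1 of 5 genes, Slc6a5, was in the table and not called, and it is named here after its values were seen. Its level was 180.3 in WT-Mem replicate 3, 85.59 in WT-Veh replicate 3 and 12.93 to 59.86 in the other mice. WT-Mem replicate 3 had the highest Pvalb of the WT-Mem group (766) and WT-Veh replicate 3 the highest of all mice (924). The Pvalb difference over both treatments was -0.30 without WT-Mem replicate 3 (adjusted p = 0.0767). The part of these markers in the Pvalb and Gad2 differences was not tested.

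Transcript length and GC content also moved with genotype over all genes. When the 15024 coding genes tested were split into 5 bins of near-equal size by transcript length, the median log2 fold change of KO against WT was -0.06 in the shortest bin and 0.05 in the longest. From the lowest to the highest of 5 bins of GC content it went from 0.03 to -0.04. Pvalb (977 bases) and Vip (1530 bases) both lay in the shortest bin with opposite differences, Gad2 (5744 bases) lay in the longest, and Gad1, Slc32a1 and Lhx6 lay in the middle one. The differences and the median of the gene's own length bin were -0.35 and -0.06 for Pvalb, 0.32 and -0.06 for Vip, 0.19 and 0.05 for Gad2 and 0.28 and -0.005 for Lhx6, given as a description because these 4 are named for having been called. By GC content Vip (42.2%) and Gad2 (44.1%) lay in the lowest bin, Pvalb (49.3%) in the middle one and Lhx6 (56.2%) and Slc32a1 (61.9%) in the highest. The part of length and GC content in these differences was not tested.

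**Figure D5:**
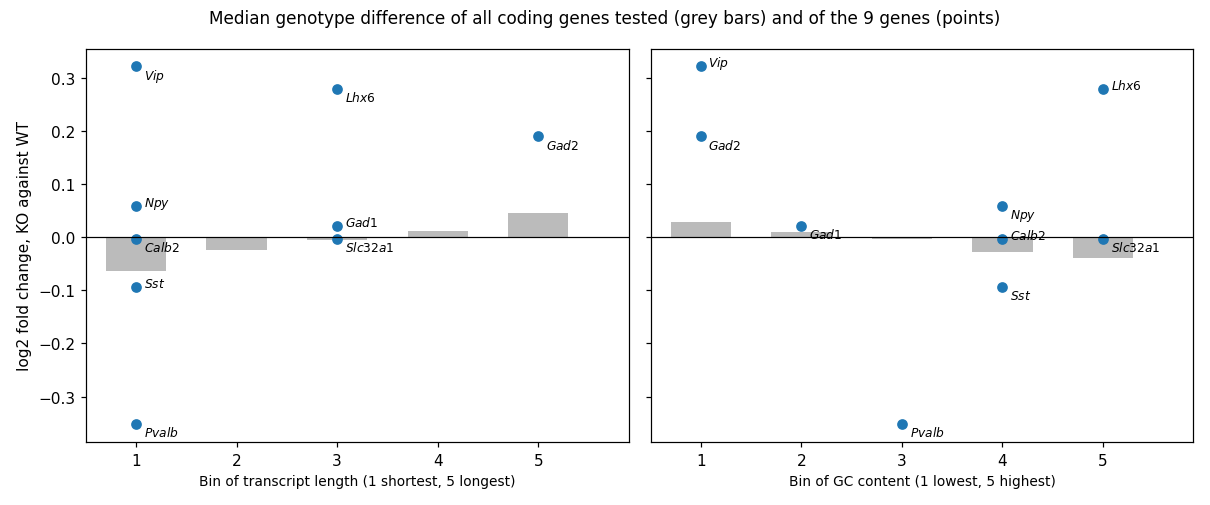
The log2 fold change of KO against WT over both treatments (vertical axis) by bin of transcript length (left, 1 shortest to 5 longest) and of GC content (right, 1 lowest to 5 highest); grey bars are medians of all coding genes tested and points the 9 genes. The bars run from -0.06 to 0.05 over length, while Pvalb (-0.35) and Vip (0.32) lie on either side within the shortest bin.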

How the data were processed

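RNA-Seq libraries were made with the TruSeq RNA kit v2, which does not mark strand. Per the methods and the submitters' processing notes, the authors quantified transcripts of GRCm38 with Salmon 1.1.0 (quasi-mapping, corrected for GC bias), imported gene-level values with tximport and normalized them with DESeq2. The deposited values are therefore a normalized signal per gene (called normalized counts), neither whole reads nor logged, for 19312 genes in 12 mice; the annotation release is not given in the sources used here, and read totals per mouse were not used here. Sums of values per mouse (30373849 to 31199251) were equalized by this scaling and are not depths.

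Groups and replicate numbers came from the sample titles. The 9 genes and the related lists were chosen with earlier results of these data known. limma 3.58.1 (R 4.3.3; lmFit, eBayes with trend) was fitted on log2(value + 1), so fold changes are on that scale, for all genes with a mean of at least 10, and p-values were Benjamini-Hochberg adjusted over all genes tested. Genes with an adjusted p under 0.05 were called. Each pairwise comparison used its own 6 mice; genotype (with treatment as covariate), memantine (with genotype) and their interaction used all 12. The script was tested on simulated data. Replicate numbers were not used as a block, since same-numbered mice of different groups did not deviate together (18 correlations from -0.175 to 0.0802). Each mouse is a separate animal, but litters are not given, so p-values measure the spread between these mice. Lengths and positions are from GENCODE M21, which 19295 genes matched, and promoters from RefSeq (GRCm38.p6), which held 8 of the 9 genes; Calb2 had no entry.

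Named genes were the 9, from each related list those called or, in both K/W comparisons and the pooled genotype difference, up to 4 with an unadjusted p under 0.05, and the 3 most like genes of each of the 9. Cell type markers are given as counts; some genes of these lists are not reported here and were left out of the lists' counts, medians and sums. Alternatives were pseudocounts of 0.5 and 5, a filter at 50 or none, values rescaled to an equal sum or quantile normalized, no variance trend, a replicate block, all 12 mice in one fit, and each mouse left out in turn. Leaving out both KO-Veh replicate 3 and WT-Veh replicate 3 was added after the values were seen.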

Additional observations from a re-analysis of the deposited data

How the results depend on the processing

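Over 1386 refits of single genes, 39 lost a call, 5 gained one and 64 had another sign than the reported fit, all 64 in differences that were not called. In the genotype difference over both treatments, all 84 refits of Gad2, Vip, Lhx6 and Pvalb kept their sign. The number of the 9 genes called there was 4 in the reported fit, 0 with no trend of the variance, 1 without both KO-Veh replicate 3 and WT-Veh replicate 3, and 0 to 3 with 1 mouse left out. In KO-M/WT-V it was 1, with 0 for no trend, 2 with all 12 mice in one fit and 0 to 3 with 1 mouse left out. In Mem-K/W it was 0, with 0 to 1 with 1 mouse left out. In every other comparison it stayed at 0 under each alternative run.

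The replicate block gave 2 of the 9 genes in KO-M/WT-V and 3 in the pooled genotype difference, where Lhx6 was lost (adjusted p = 0.0606), and changed the number in no other comparison. The mice share only a number: the same number correlated best in 12 of 36 pairs of a mouse and another group.

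Among the differences that turned in sign, Slc32a1 was the gene that moved by more than its error, with 1 mouse left out in Veh-K/W (-0.0617 to 0.144) and KO-M/WT-V (-0.0501 to 0.155). In the memantine comparison over both genotypes it was -0.0144 without both KO-Veh replicate 3 and WT-Veh replicate 3 and 0.0116 to 0.103 with 1 mouse left out. Smaller turns near 0 were found for other genes too, such as Npy in Veh-K/W (-0.0564 to 0.0967) and Lhx6 in WT-M/V (-0.0831 to 0.149). The cause of these changes was not tested.

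Counts over all genes also moved. Veh-K/W called 5 genes (2 to 53 with 1 mouse left out, and 2 with a filter at 50, with the block or with all 12 mice). Mem-K/W called 12 (2 to 1911, 4 with no trend or the block, and 636 with all 12 mice). KO-M/V called 0 (0 to 97). WT-M/V called 2 (1 to 3, and 0 with a filter at 50 or all 12 mice). KO-M/WT-V called 595 (1 to 2490, 7 with no trend, 999 with the block and 2067 with all 12 mice). WT-M/KO-V called 4 (1 to 5, 0 with no trend and 2 with the block). The pooled genotype difference called 1907 (694 to 2683, 894 with no trend). The median of all genes moved by no more than 0.02 (log2) from 0 under any setting. With 3 mice per group, a difference that was not called is not shown to be absent within the interval given.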
